A study of Mus musculus with 6 samples.

Results

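The immune and inflammatory response genes of the mouse colon were the rows of the deposited count table whose Gene Ontology (GO) annotation, as the file gives it, holds 1 of 3 terms: immune system process, immune response or inflammatory response. The rule left out the antimicrobial lectins Reg3b and Reg3g, serum amyloids and a set of interferon, cytotoxic and other genes, of which only Vnn1 carried one of the terms. It found 41 genes among 2033 rows. Inflammatory response was held by 34 of them, immune response by 11 and immune system process by 3, with 7 genes under more than 1 term. Of the 41 rows, 39 are typed as protein-coding, and each stands for a single gene symbol. The libraries were made from the colon of mice given PFOA (perfluorooctanoic acid, a fluorinated surfactant that persists in the body) over a long term, with 3 libraries, and from the colon of control mice, also with 3 libraries. Strain, sex, age, dose, exposure time and the part of the colon are not in the labels used here. The labels name 6 frozen mice per group and do not say which mice entered which library, so p-values measure the spread between libraries, which may be partly technical.

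The mucosa of the colon is lined by epithelium that meets bacteria, and resident lymphocytes and phagocytes lie in and under it. Pattern recognition receptors such as Toll-like receptors sense bacterial molecules. The cells that sense them release cytokines, which act through receptors on neighbouring cells, and chemokines, which draw leukocytes along a gradient. Enzymes induced in this state make nitric oxide or break down tryptophan, and lipid-sensing nuclear receptors and annexins are known to damp the response. In bulk tissue, fewer cells of a type and less RNA per cell cannot be told apart.

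The deposited table holds only rows that differ between the groups, which sets how every count here is read. Listed counts summed to between 2136897 and 2269892 per PFOA library and to between 1771120 and 2155472 per control library, and these sums are not sequencing depths. Across all 2033 rows, no log2 ratio of mean counts lay between -1.08 and 0.92. The 41 genes share between 1.05% and 1.24% of the listed counts in PFOA libraries, against 0.698% to 0.884% in control libraries. Without Nr1h4 and Pparg, the 2 genes with the most counts over all 6 libraries, the shares were 0.253% to 0.382% in PFOA libraries and 0.427% to 0.64% in control libraries, so that the direction of the summed level rests on those 2 genes. CPM below refers to a gene's share of the listed counts after TMM scaling, and compares libraries, not genes of different length.

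Of the 41 genes, 26 had a higher and 15 a lower mean CPM in PFOA colon, so that 63.4% of the genes were on the higher side. Over all rows 1035 were higher and 998 lower, with 50.9% on the higher side. The low-count filter kept 31 of the genes. By edgeR's quasi-likelihood test (adjusted p threshold 0.05), 18 had a higher level in PFOA colon and 13 a lower one. Every one of the 1608 rows tested in the table passed (100%), with 50.0% higher and 50.0% lower, so passing it says nothing particular about the immune genes. The table holds only rows that differ between these same libraries, so adjusted p-values and kept calls below are descriptions, not independent support. The median log2 fold change was 0.99 over the 31 tested genes, -0.03 over all tested rows and -1.03 over the tested rows with any GO term. Since the table leaves out small differences, such a median follows which direction holds more rows and is no separate result. Among the tested genes that were higher it was 1.79, against 1.71 for all tested rows that were higher, and among those that were lower it was -1.64, against -1.80. The CPM values of the groups did not overlap for 38 of the 41 genes, against 97.1% of all rows. These were 23 of the 26 genes that were higher, against 989 of 1035 rows that were higher (48.6% of all rows in the table), and all 15 that were lower, against 986 of 998 rows that were lower (48.5% of all rows in the table). Separation of the groups is thus shared by nearly the whole table. The 3 genes whose groups overlapped were Cxcl9, Hp and Cyp26b1. The 10 genes outside the 31 tested were below the low-count filter and are described by their counts. The number higher in PFOA was 26 also with raw counts or listed totals in place of the TMM scaling. No log2 ratio of mean counts among the 41 genes lay between -1.12 and 0.94, so a change of scaling could hardly move this number.

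**Figure D1:**
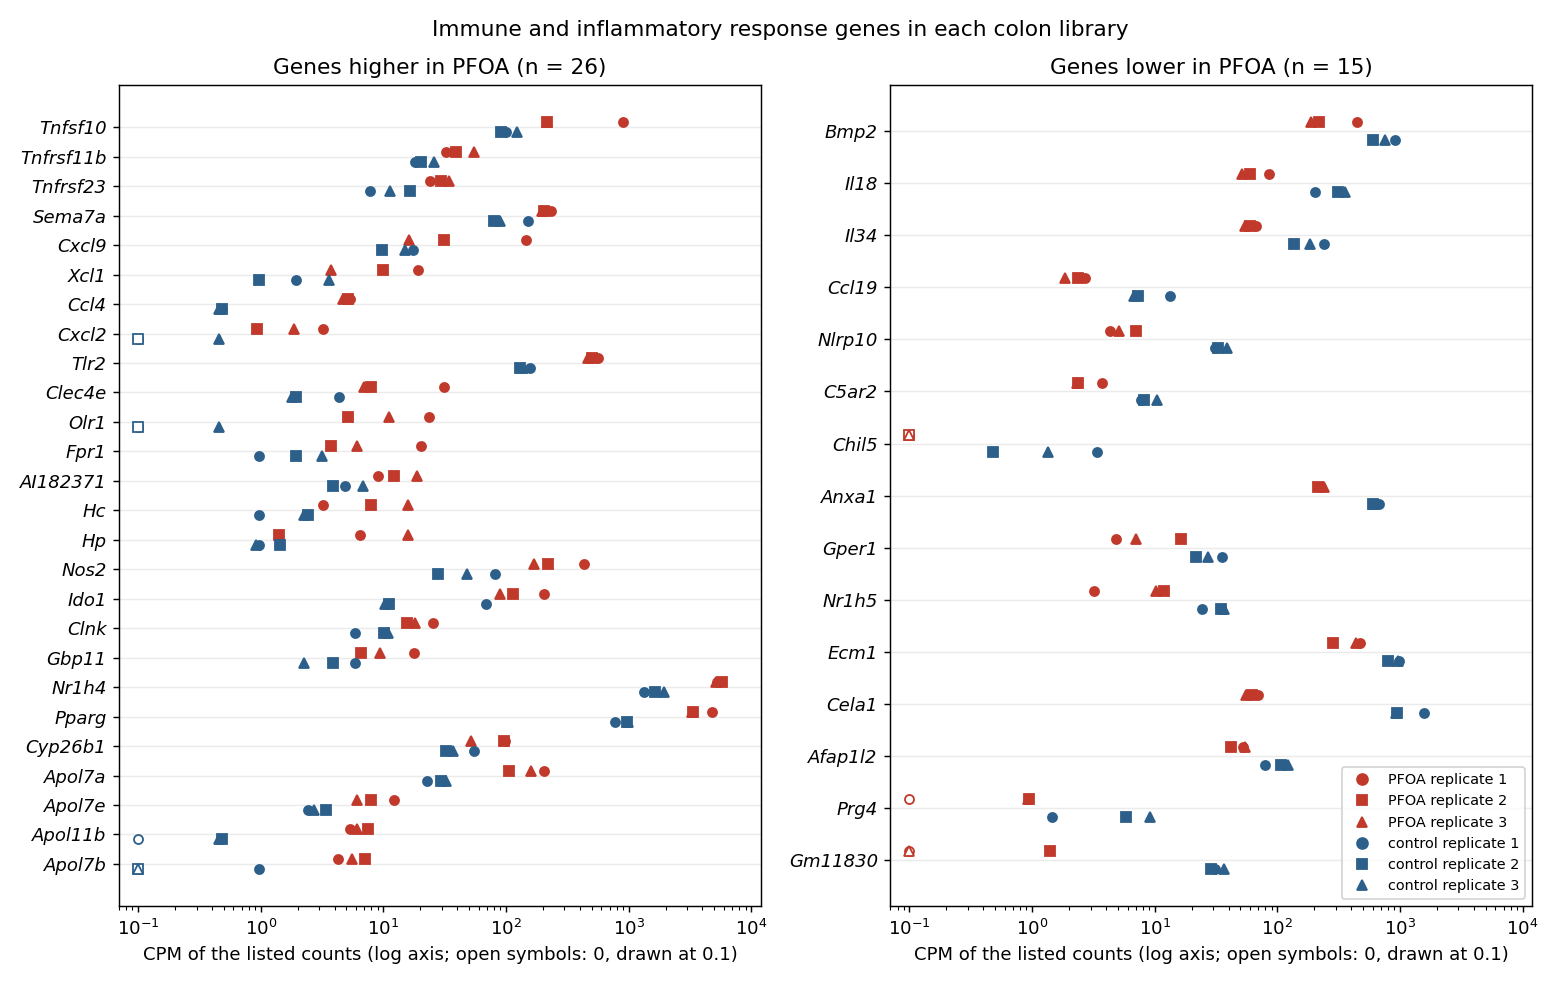
CPM of the listed counts (log axis) of each of the 41 genes in the 3 PFOA libraries (red) and the 3 control libraries (blue), with genes higher in PFOA on the left and genes lower in PFOA on the right; open symbols stand for libraries with 0 counts. Within each gene the red and blue symbols are apart for 38 genes and overlap for Cxcl9, Hp and Cyp26b1. For Xcl1 they are apart only through the scaling.

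Promoter sequence is shown for 4 of the genes: Cxcl2 for its pair of kappaB motifs, the type that NF-kappaB binds, Olr1 because it had the largest fold change among the tested genes that were higher, and Anxa1 and Cela1 as genes that were lower. Each is the 250 bases before the start site, 5′ to 3′ on the strand of the gene, from the RefSeq promoter table (build GRCm38.p6), which held 30 of the 41 genes. The positions are chr5:90903649-90903898 on the plus strand for Cxcl2, chr6:129507166-129507415 on the minus strand for Olr1, chr19:20390672-20390921 on the minus strand for Anxa1 and chr15:100687921-100688170 on the minus strand for Cela1. The start sites are those of the promoter table and can differ from the ends of the counted rows. For Anxa1 the stretch lies inside the span of the counted row, and for Cxcl2 and Cela1 it overlaps that span in part. Capitals mark the kappaB motif in Cxcl2, TGANTCA (AP-1 type) in Olr1 and TATAAA in Anxa1 and Cela1.
Cxcl2: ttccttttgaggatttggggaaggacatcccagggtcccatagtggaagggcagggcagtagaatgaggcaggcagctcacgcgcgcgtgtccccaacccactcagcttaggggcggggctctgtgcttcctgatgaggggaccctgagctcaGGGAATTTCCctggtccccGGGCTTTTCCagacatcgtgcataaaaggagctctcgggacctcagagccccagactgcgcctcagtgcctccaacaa
Olr1: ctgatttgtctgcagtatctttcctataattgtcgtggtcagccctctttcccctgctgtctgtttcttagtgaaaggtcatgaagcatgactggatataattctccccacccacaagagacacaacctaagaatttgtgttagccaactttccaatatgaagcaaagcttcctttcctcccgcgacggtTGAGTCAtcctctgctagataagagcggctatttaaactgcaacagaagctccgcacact
Anxa1: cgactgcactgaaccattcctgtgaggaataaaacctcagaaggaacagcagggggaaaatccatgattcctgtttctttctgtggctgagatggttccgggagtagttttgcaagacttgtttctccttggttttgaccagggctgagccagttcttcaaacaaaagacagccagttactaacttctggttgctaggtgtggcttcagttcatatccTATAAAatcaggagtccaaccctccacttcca
Cela1: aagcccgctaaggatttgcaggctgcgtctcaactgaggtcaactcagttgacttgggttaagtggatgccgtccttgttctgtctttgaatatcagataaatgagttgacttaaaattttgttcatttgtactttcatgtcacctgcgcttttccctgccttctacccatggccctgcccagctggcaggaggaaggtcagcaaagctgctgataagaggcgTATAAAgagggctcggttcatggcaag
Both strands were searched, and none of the marked matches overlap each other. The kappaB motif was searched as a single pattern of letters with some positions free, which both capitalized strings in Cxcl2 follow. This pattern was in 1.4% of 27025 promoters of the same length. Among the 30 genes it was in Cxcl2 alone, with 2 matches, at bases -97 to -88 and -78 to -69 from the start site. Sites that NF-kappaB binds with other letters, or outside these 250 bases, were not searched for, so the other promoters may hold some. TGANTCA was in 6.87% of all promoters and in Olr1 and Ecm1. TATAAA was in 12.97% of all promoters, in 7 of 20 promoters of genes that were higher and in 5 of 10 of genes that were lower. The interferon-stimulated response element (3.04% of all promoters) and the STAT-type motif TTCNNNGAA (7.18%) were each in 3 of the 30, and Apol11b held both. A match is a string of letters and not a shown binding site.

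The genes are described by role from here on. These roles were assigned after the values were seen, so a role whose genes all go 1 way is no separate result. The TNF family supplied a ligand and 2 decoy receptors, and all 3 were higher in PFOA. Tnfsf10, which encodes the death ligand TRAIL, had 1683, 461 and 461 counts in PFOA replicates 1, 2 and 3 and 207, 187 and 273 counts in control replicates 1, 2 and 3. All PFOA libraries lay above all control libraries, and PFOA replicate 1 had several times the count of the other PFOA libraries. Its mean was 445 ± 396 CPM in PFOA and 105 ± 17 CPM in control (SD, n = 3 per group), a log2 fold change of 2.08 ± 0.58 (SE; edgeR adjusted p = 0.00938). Without PFOA replicate 1 the log2 fold change was 1.01 (edgeR adjusted p = 0.00383). Tnfrsf11b, the secreted decoy receptor osteoprotegerin, which binds RANKL and TRAIL, had 60, 83 and 118 counts in PFOA and 37, 42 and 57 in control, a log2 fold change of 0.97 ± 0.33 (SE; edgeR adjusted p = 0.0201). Tnfrsf23, a mouse decoy receptor for TRAIL, had 45, 63 and 73 counts in PFOA and 16, 34 and 25 in control, a log2 fold change of 1.30 ± 0.37 (SE; edgeR adjusted p = 0.01). For neither decoy was PFOA replicate 1 the highest PFOA library, unlike for the ligand. Tnfrsf11b lost its call without control replicates 1, 2 and 3 in turn and without PFOA replicate 3 (edgeR adjusted p = 0.0848, 0.0679, 0.0501 and 0.0781) and with listed totals alone (0.055), and Tnfrsf23 without control replicate 3 (edgeR adjusted p = 0.0575).

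Of the other cytokines and growth factors, 3 were lower in PFOA and 1 was higher. Il18, an epithelial cytokine of the interleukin-1 family that is activated by inflammasomes, had 159, 128 and 110 counts in PFOA and 419, 641 and 786 in control. Its log2 fold change was -2.15 ± 0.31 (SE over 3 libraries a group; edgeR adjusted p = 7.76e-04). Il34, a ligand of the macrophage receptor CSF1R, had 124, 126 and 117 counts in PFOA and 497, 281 and 406 in control, and the PFOA libraries lay close together. Its log2 fold change was -1.64 ± 0.28 (SE; edgeR adjusted p = 0.00136). Bmp2, a bone morphogenetic protein of the intestinal mucosa, had 840, 467 and 403 counts in PFOA and 1859, 1255 and 1665 in control (log2 fold change -1.40 ± 0.36, SE; edgeR adjusted p = 0.007). Its PFOA replicate 1 was nearest to the control libraries. Sema7a, a membrane-anchored semaphorin that signals to T cells and macrophages through integrins, had 436, 437 and 419 counts in PFOA and 307, 166 and 199 in control, a log2 fold change of 0.99 ± 0.29 (SE; edgeR adjusted p = 0.0113). That call was lost without control replicate 2 or 3 (edgeR adjusted p = 0.0522 and 0.0678). Il34 lies over exons of 2 predicted genes on the opposite strand, whose reads cannot be told apart from its own without a stated strand setting.

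Chemokines were higher in PFOA in 4 of 5 genes, at low counts. Cxcl9, an interferon-gamma-induced chemokine that attracts CXCR3-bearing T cells, had 272, 67 and 35 counts in PFOA and 36, 20 and 33 in control. The lowest PFOA library lay inside the control range, and PFOA replicate 1 was far above the rest. Its log2 fold change of 2.19 ± 0.79 (SE over 3 libraries a group; edgeR adjusted p = 0.0253) was 0.73 without PFOA replicate 1 (edgeR adjusted p = 0.122). The call was also lost without any 1 of the control libraries (edgeR adjusted p = 0.0636 to 0.0786) and with limma-voom (log2 fold change 1.59, adjusted p = 0.0813). Ccl4, a macrophage and T cell chemokine (MIP-1beta), had 10, 11 and 10 counts in PFOA and 1 count in each control library. This is a ratio of 10.7 with a 95% counting interval (exact Clopper-Pearson, counting error only) from 3.32 to 54.5. Xcl1, the lymphotactin of cytotoxic T cells and natural killer cells, had 36, 21 and 8 counts in PFOA and 4, 2 and 8 in control. The third library of each group had the same count. By CPM these libraries stood at 3.73 in PFOA and 3.63 in control, so that its groups are apart only through the scaling. Cxcl2, a chemokine for neutrophils whose promoter is printed above, had 6, 2 and 4 counts in PFOA and 0, 0 and 1 in control (ratio 12.4, 95% counting interval 1.83 to 529). Ccl19, a ligand of CCR7 in lymphoid stroma, went the other way, with 5, 5 and 4 counts in PFOA and 27, 15 and 15 in control (log2 fold change -1.96 ± 0.43, SE; edgeR adjusted p = 0.00367).

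Receptors that sense microbial or damage signals were higher in 4 of 6 genes. Tlr2, the Toll-like receptor for bacterial lipoproteins, had 1052, 1070 and 993 counts in PFOA and 319, 267 and 302 in control. Both groups were tight, at 510 ± 50.6 CPM in PFOA and 141 ± 13.5 CPM in control (SD, n = 3 per group), and the log2 fold change was 1.86 ± 0.21 (SE; edgeR adjusted p = 3.01e-04). Olr1, the scavenger receptor LOX-1 for oxidized low-density lipoprotein, had 44, 11 and 24 counts in PFOA and 0, 0 and 1 in control. With a single control count, its ratio of 81.4 has a 95% counting interval from 14.2 to 3260, and its fitted log2 fold change of 5.93 ± 1.0 (SE; edgeR adjusted p = 0.00135) depends on that count. It was 7.71 without control replicate 3, 5.22 without PFOA replicate 1 and 5.03 with limma-voom. Clec4e, the phagocyte receptor Mincle, had 58, 17 and 15 counts in PFOA and 9, 4 and 4 in control, a log2 fold change of 2.47 ± 0.73 (SE; edgeR adjusted p = 0.0117) that was 1.42 without PFOA replicate 1 (edgeR adjusted p = 0.0275). Fpr1, the formyl peptide receptor of neutrophils, had 38, 8 and 13 counts in PFOA and 2, 4 and 7 in control. Clec4e and Fpr1 thus shared a high PFOA replicate 1 with Tnfsf10 and Cxcl9.

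The remaining 2 receptors were lower. Nlrp10, a NOD-like receptor without leucine-rich repeats, had 8, 15 and 11 counts in PFOA and 64, 68 and 85 in control, which is 6.19-fold lower (log2 fold change -2.62 ± 0.34, SE over 3 libraries a group; edgeR adjusted p = 5.14e-04). C5ar2, the second receptor for the complement fragment C5a, had 7, 5 and 5 counts in PFOA and 16, 17 and 23 in control (log2 fold change -1.64 ± 0.37, SE; edgeR adjusted p = 0.00383). Both genes kept their call when any single library was left out, which is no separate support in a table of rows that differ.

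Complement C5 and acute-phase proteins were higher in 3 of 3 genes, with the highest count in PFOA replicate 3 for each. Hc, which encodes complement C5, the source of C5a, had 6, 17 and 34 counts in PFOA and 2, 5 and 5 in control. Its neighbour AI182371, a gene matched in the file to complement C5 and lying 20.4 kb away on chromosome 2, had 17, 26 and 40 counts in PFOA and 10, 8 and 15 in control. The libraries stood in the same order for both genes in PFOA, and reads of these similar genes could be counted for each other. The log2 fold change of AI182371 was 1.35 ± 0.41 (SE over 3 libraries a group; edgeR adjusted p = 0.0125), and the call was lost when control 1, control 2 or PFOA 3 was left out (edgeR adjusted p = 0.0573, 0.0584 and 0.051). Hp, the haemoglobin-binding protein haptoglobin, had 12, 3 and 34 counts in PFOA and 2, 3 and 2 in control, so that the groups overlapped.

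Inducible enzymes and other effectors were higher in 4 of 5 genes, each with its highest PFOA count in replicate 1. Nos2, the inducible nitric oxide synthase (chromosome 11, 78920787 to 78960254, mm10), had 801, 472 and 361 counts in PFOA and 166, 58 and 107 in control. All PFOA libraries were above all control libraries, at 273 ± 138 CPM in PFOA and 52.5 ± 26.7 CPM in control (SD, n = 3 per group), a log2 fold change of 2.38 ± 0.49 (SE; edgeR adjusted p = 0.0028). Ido1, which starts the breakdown of tryptophan to kynurenine, had 380, 242 and 192 counts in PFOA and 141, 23 and 23 in control, so that control replicate 1 stood between the other control libraries and the PFOA libraries. Its log2 fold change of 2.17 ± 0.76 (SE; edgeR adjusted p = 0.0222) was 3.51 without control replicate 1. The call was lost when control 2, control 3 or PFOA 1 was left out (edgeR adjusted p = 0.0637, 0.0676 and 0.0585). Gbp11, an interferon-induced guanylate-binding protein typed in the table as a polymorphic pseudogene, had 33, 14 and 20 counts in PFOA and 12, 8 and 5 in control. Its log2 fold change of 1.47 ± 0.51 (SE; edgeR adjusted p = 0.0225) was not past the threshold when control 2, control 3 or PFOA 1 was left out (edgeR adjusted p = 0.0723, 0.111 and 0.093). Reads of near-identical guanylate-binding protein genes may be shared with it. Clnk, a signalling adaptor of mast cells and natural killer cells, had 47, 33 and 39 counts in PFOA and 12, 21 and 24 in control (log2 fold change 1.12 ± 0.37, SE; edgeR adjusted p = 0.0185). That result missed the threshold when control 1, control 3 or PFOA 1 was left out (edgeR adjusted p = 0.0851, 0.0533 and 0.0571). Chil5, a chitinase-like gene, had no count in PFOA and 7, 1 and 3 in control, at least 3.56-fold lower against a floor of 3 counts over the PFOA group.

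**Figure D2:**
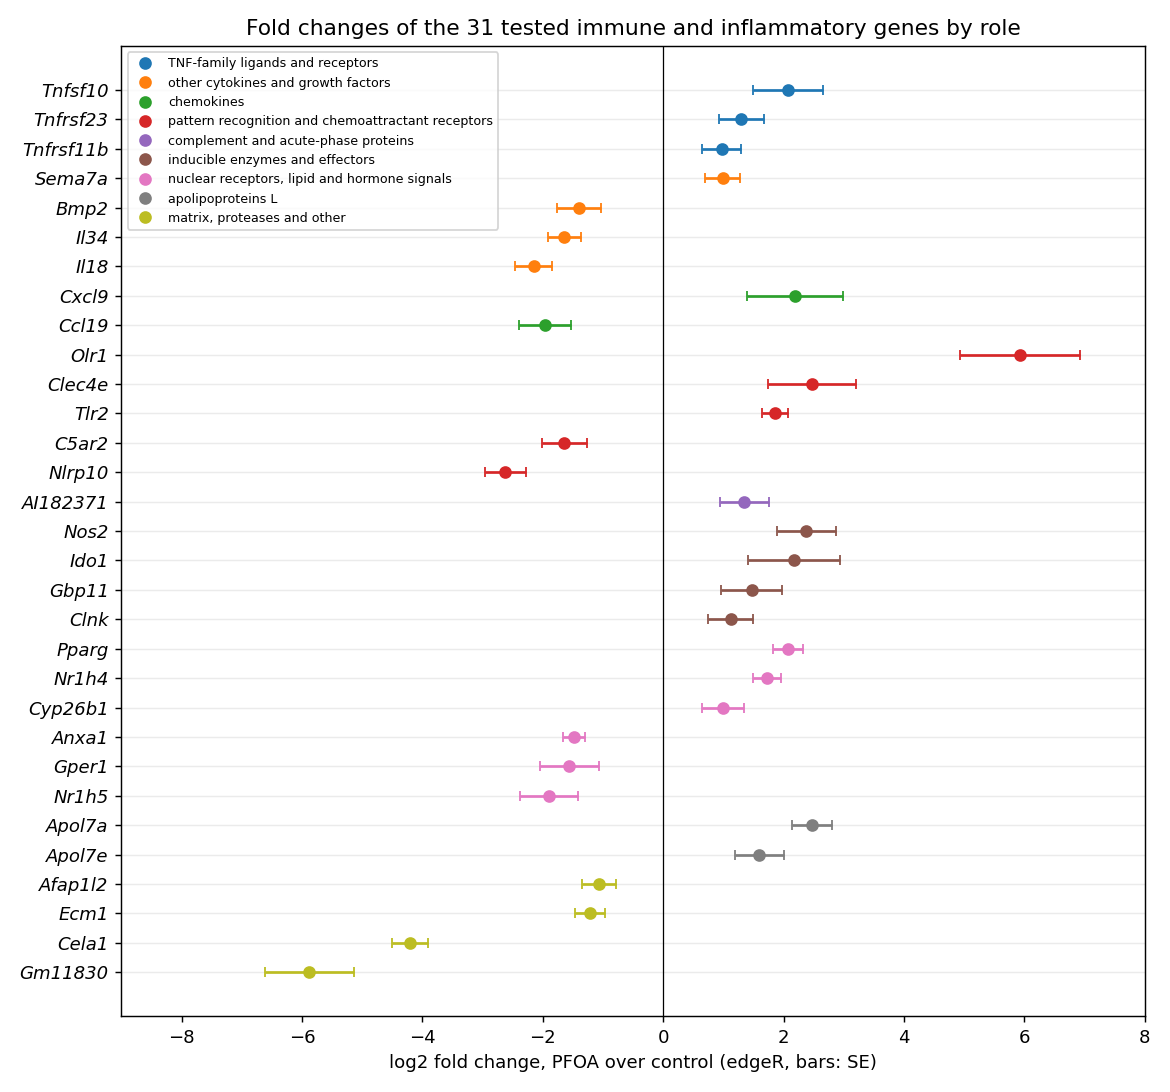
Log2 fold change of PFOA over control (x axis; edgeR, bars show the SE, 3 libraries per group) for the 31 tested genes, ordered and coloured by role. The estimates run from -5.88 for Gm11830 to 5.93 for Olr1. The TNF family genes, the apolipoprotein L genes and AI182371, the 1 tested gene of the complement group, lie to the right of 0. The matrix, protease and other genes lie to the left. Roles were assigned after the values were seen, so a role on 1 side of 0 is no separate result.

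Nuclear receptors and lipid or hormone signals were split, with 3 genes higher and 3 lower. Nr1h4, the bile acid receptor FXR, and Pparg, a fatty acid sensor of the colon epithelium, had the highest mean CPM of the 41 genes in PFOA, at 5380 ± 309 and 3840 ± 837 CPM in PFOA and at 1640 ± 297 and 915 ± 119 CPM in control (SD, n = 3 per group). Their log2 fold changes were 1.72 ± 0.23 and 2.07 ± 0.25 (SE; edgeR adjusted p = 5.76e-04 and 3.85e-04). The transcript lengths given for these rows, 55440 and 41197 bases, are far above the longest GENCODE M21 transcripts of the same genes, 2013 and 2125 bases. The rows span 79352 and 129449 bases, the same as the genes in GENCODE M21, so the added length lies within the genes. No other gene lies in the span of Nr1h4, and Gm44079 lies in that of Pparg. The part of the added length in the counts was not tested. Nr1h5, the FXR-related receptor FXR-beta, went opposite to Nr1h4, with 6, 25 and 22 counts in PFOA and 50, 71 and 81 in control (log2 fold change -1.90 ± 0.48, SE; edgeR adjusted p = 0.00608). Cyp26b1, which breaks down retinoic acid, had 182, 204 and 112 counts in PFOA and 112, 67 and 81 in control. Its groups overlapped in CPM, and its log2 fold change of 0.99 ± 0.35 (SE; edgeR adjusted p = 0.0249) lost its call with listed totals alone (edgeR adjusted p = 0.0814). The call was also lost without control replicate 2 or 3 and without PFOA replicate 1 or 2 (edgeR adjusted p = 0.0962, 0.11, 0.0625 and 0.0645).

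Anxa1, the glucocorticoid-induced annexin that damps leukocyte recruitment, had 421, 458 and 511 counts in PFOA and 1386, 1251 and 1359 in control. It was among the least variable of the genes, with 227 ± 11.4 CPM in PFOA and 632 ± 37.9 CPM in control (SD, n = 3 per group), and its log2 fold change was -1.48 ± 0.19 (SE; edgeR adjusted p = 4.88e-04). Gper1, a membrane oestrogen receptor, had 9, 35 and 15 counts in PFOA and 73, 45 and 60 in control (log2 fold change -1.56 ± 0.49, SE; edgeR adjusted p = 0.0145), and without PFOA replicate 2 the log2 fold change was -2.19.

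Apolipoproteins L are intracellular lipid-binding proteins, and in humans one of them lyses trypanosomes. The 4 with an inflammatory annotation were all higher in PFOA and lie within 331.1 kb on chromosome 15. Apol7a had 384, 226 and 342 counts in PFOA and 47, 61 and 72 in control, a log2 fold change of 2.47 ± 0.33 (SE over 3 libraries a group; edgeR adjusted p = 5.73e-04). Apol7e had 23, 17 and 13 counts in PFOA and 5, 7 and 6 in control (log2 fold change 1.60 ± 0.41, SE; edgeR adjusted p = 0.00665). Apol7b had 8, 15 and 12 counts in PFOA and 2, 0 and 0 in control, and Apol11b had 10, 16 and 13 counts in PFOA and 0, 1 and 1 in control. These are ratios of 18.0 and 20.1 with 95% counting intervals from 4.64 to 155 and from 5.2 to 172. The 4 genes are copies of one family, so their reads may be shared and they are not separate observations.

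A mixed group of matrix proteins, a protease and other genes was lower in 5 of 5. Cela1, an elastase of the chymotrypsin family (chromosome 15, 100674193 to 100687969, mm10), had 129, 132 and 118 counts in PFOA and 3239, 1946 and 2048 in control. The groups were far apart and the level was 18.5-fold lower (log2 fold change -4.21 ± 0.30, SE; edgeR adjusted p = 5.84e-05). The transcript length given for the Cela1 row, 3599 bases, is above its longest GENCODE M21 transcript, 1108 bases. The part of the added length in its counts was not tested. Ecm1, a secreted matrix glycoprotein, had 880, 601 and 932 counts in PFOA and 2012, 1646 and 2140 in control (log2 fold change -1.21 ± 0.25, SE; edgeR adjusted p = 0.00284). Afap1l2, an actin-associated adaptor of Src signalling, had 97, 89 and 117 counts in PFOA and 163, 224 and 272 in control (log2 fold change -1.07 ± 0.28, SE; edgeR adjusted p = 0.00696). Prg4, the lubricating proteoglycan lubricin, had 0, 2 and 2 counts in PFOA and 3, 12 and 20 in control, and it overlaps an exon of Tpr on the opposite strand. Gm11830, typed as a processed pseudogene and matched in the file to the chromatin protein and alarmin high mobility group protein B1, had 0, 3 and 0 counts in PFOA and 64, 59 and 81 in control. The control-to-PFOA ratio was 66.0 with a 95% counting interval from 22.3 to 322, and the fitted log2 fold change of -5.88 was -9.04 without PFOA replicate 2, which held its 3 PFOA counts. Reads of a near-identical parent gene could be counted for it.

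PFOA replicate 1 was the highest PFOA library, by CPM, for 18 of the 26 genes that were higher (69.2%), against 477 of the 1035 rows that were higher in the whole table (46.1%). That library has the lowest TMM factor, 0.857, which raises its CPM. By raw counts it was highest for 14 of the 26 (53.8%), against 37.7% of all rows that were higher. Its CPM was more than 2 times that of the next PFOA library for 5 of the 26 genes (19.2%), against 13.2% of all rows that were higher. The ratio of its CPM to the mean of the other PFOA libraries was 6.09 for Cxcl9, 4.18 for Tnfsf10, 4.15 for Clec4e, 4.14 for Fpr1 and 2.88 for Olr1. It was 1.17 for Tlr2, 0.969 for Nr1h4 and 0.27 for Hc. Without this library 26 genes again had a higher mean in PFOA, a number that the selection of rows favours. Clnk, Cxcl9, Cyp26b1, Gbp11 and Ido1 lost their edgeR calls, as given above.

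**Figure D3:**
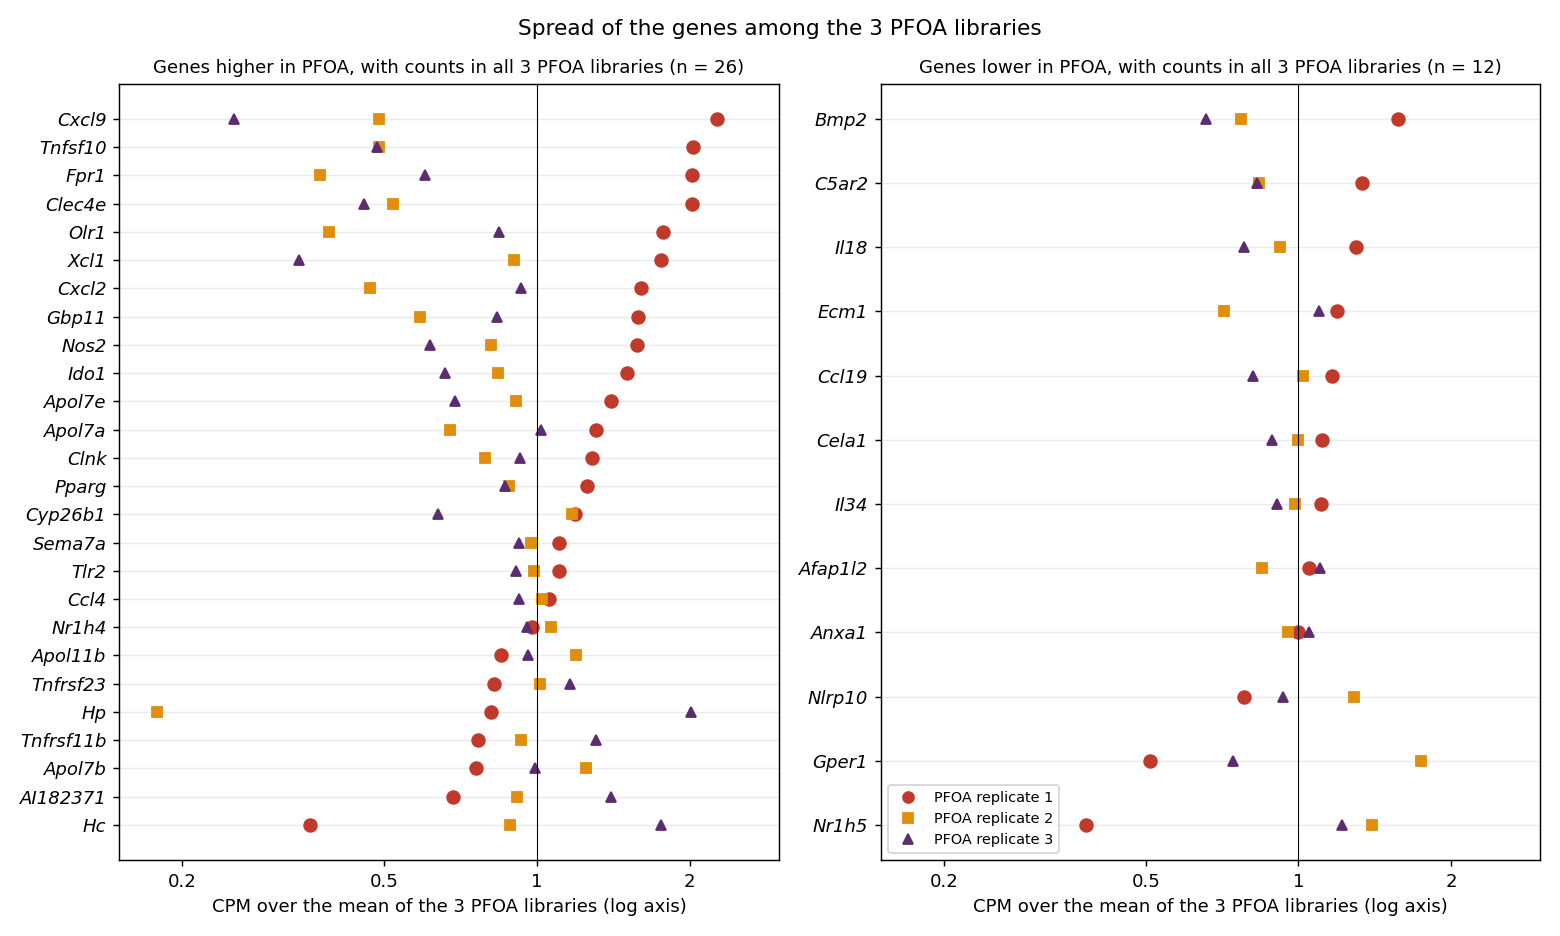
CPM in each PFOA library divided by the mean of the 3 PFOA libraries (log axis), for the 26 genes that were higher in PFOA (left) and the 12 genes that were lower and had counts in every PFOA library (right), sorted by PFOA replicate 1. Replicate 1 lies to the right of the other libraries for Cxcl9, Tnfsf10, Fpr1 and Clec4e, near them for Tlr2 and Nr1h4, and to the left for Hc and Nr1h5.

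**Figure D4:**
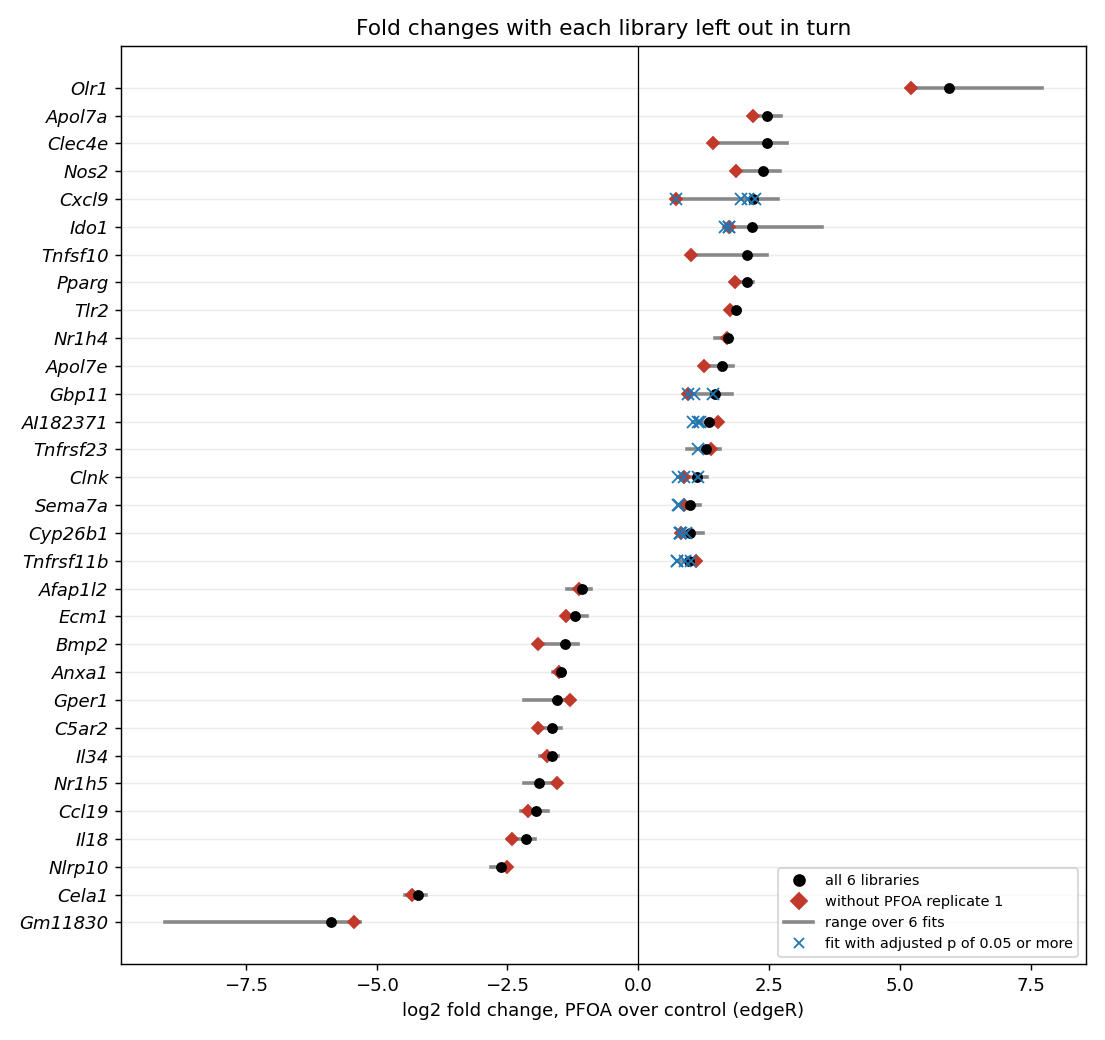
Log2 fold change of PFOA over control (x axis; edgeR) for the 31 tested genes with all 6 libraries (black), without PFOA replicate 1 (red) and over the 6 fits that leave out 1 library each (grey bar), with crosses at fits whose adjusted p was 0.05 or more. Crosses lie on 9 genes, all of them higher in PFOA, and no bar reaches 0. Lost calls were not counted over all tested rows of the table.

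Exons of a gene on the opposite strand overlap Xcl1, Hc, Tnfrsf23, Chil5 and Apol7e, as they do Il34 and Prg4, and a gene on the same strand overlaps C5ar2 and Ecm1, so reads of these pairs may be mixed. An extracellular GO term was held by 25 of the 41, and by 187 of the 962 rows with any GO term. Of these 25 genes 15 were higher in PFOA and 10 lower, and of the 187 rows 82 were higher and 105 lower. Plasma membrane terms were held by 8 of the 41, of which 4 were higher and 4 lower, and by 210 of all rows, of which 95 were higher and 115 lower. By position, 6 genes lie on chromosome 15, 5 each on chromosomes 3 and 5, and Cxcl2 and Cxcl9 are 1415.4 kb apart on chromosome 5.

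Many rows of immune gene families carry none of the 3 terms in the file. The 14 lists of gene families used for comparison go by gene symbol, so that not every row they match is an immune gene. They match 136 rows, of which 23 are among the 41 genes. Of the other 113 rows, 70 were higher and 43 lower in PFOA, beside 50.9% higher over all rows. By edgeR, 55 were called higher and 36 lower. All 1608 tested rows of the table were called (50.0% in each direction), so a call here shows only that a row passed the low-count filter. The interferon response and antiviral list, which also matched Trim6, Trim15, Trim40 and Trim46, had 13 rows outside the 41 called higher and 2 lower. The T and natural killer cell list had 14 called higher and 4 lower. It also matched Vtcn1 and the butyrophilin-like rows Btnl1, Btnl2, Btnl9 and a row merging Btnl4 with Btnl6. Not all of its rows are thus genes of T or natural killer cells, and the calls were not split by this. The signal transduction list matched Dok7, Vav3, Map3k6, Tnip3, Pik3c2g, Mapkapk3 and Mapk15, which are not all immune genes. It had 1 row called higher and 6 lower. The epithelial and mucosal defence list had 11 called higher and 5 lower, and 3 of its rows stand for the 1 gene Muc2. Lipid mediators had 5 and 5, pattern recognition 4 and 3, B cells and immunoglobulins 3 and 2, and cytokines 1 and 3. Chemokines and antigen presentation had 1 called in each direction, and complement and coagulation 1 higher and 2 lower. Chemoattractant receptors and the list of phagocytes, granulocytes and mast cells had 0 called higher and 1 lower each, and cytokine receptors had no row outside the 41.

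Cell type markers with a row stood beside these genes as follows. Of 8 cytotoxic and natural killer markers 5 had a row, all higher in PFOA, with summed levels between 96.1 and 214 CPM in PFOA libraries and between 31.5 and 42.9 CPM in control libraries. Of 12 T cell markers only Cd8a had a row, at 32.2 to 85.8 CPM in PFOA and 15.5 to 29.3 CPM in control. None of the B cell, plasma cell, macrophage, dendritic cell or eosinophil markers had a row, which does not show that they were unchanged. Of 10 neutrophil markers only Ly6g had one, and it was lower, with 12 to 56 counts in PFOA and 1172 to 1999 in control, while Cxcl2, Fpr1 and Clec4e were higher. With no other neutrophil marker listed, Ly6g alone does not show a change in neutrophils. Hoxb13, a positional gene of the hind end of the gut, had 0 to 6 counts in PFOA and 5730 to 9884 in control, and with no labelled colon part a difference in sampled position and an effect of PFOA cannot be told apart for any gene here. For the colon itself, Car1 and 3 rows of Muc2, markers of colonocytes and goblet cells, summed to 153000 to 311000 CPM in PFOA and 47200 to 86000 CPM in control, while the other 8 epithelial markers had no row. Single markers of smooth muscle (Cnn1, 1480 to 2090 CPM in PFOA and 2550 to 5920 CPM in control) and endothelium (Lyve1, 49.9 to 126 CPM in PFOA and 221 to 287 CPM in control) and the red cell rows (at most 212 CPM in PFOA and at least 563 CPM in control) were lower. The adipocyte rows (67.8 to 277 CPM in PFOA and 8.16 to 25.6 CPM in control) and the glial marker Gfap (49.9 to 60.7 CPM in PFOA and 16.0 to 18.6 CPM in control) were higher. Of 10 mast cell markers 3 had a row, 2 of them higher and 1 lower. They summed to 5.65 to 26.8 CPM in PFOA and 3.17 to 13.2 CPM in control, and fibroblast markers had no row. Of 6 innate lymphoid cell markers only Ncr1 had a row, which is also among the natural killer markers, and it was higher. The part of cell composition in the immune gene differences was not tested.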

How the data were processed

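Colon RNA was sequenced in 3 PFOA and 3 control libraries, prepared with an mRNA-Seq kit (SMARTER), per the labels. HISAT2, HTSeq and mm10 appear in the submitters' processing notes. The authors deposited raw counts per gene row with functional annotation; no versions, strand setting or row selection rule are given in the sources used here, and 0 further per-sample columns were found. The 41 genes and the 14 family lists were chosen with earlier results of these data known, and the role groups were assigned after the values were seen. Each of the 41 is named, which goes beyond the naming rule (the 10 largest non-overlapping changes in each direction with descriptive symbols, and the 6 most abundant per list). In those lists 6 rows matched a symbol pattern by accident and were dropped after the rows were seen.

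Counts were filtered with filterByExpr, TMM-scaled and tested with edgeR 4.0.16 (R 4.3.3) glmQLFTest, two-sided, Benjamini-Hochberg adjusted over all 1608 tested rows. TMM takes most rows as unchanged, which a table of rows that differ does not meet. The scaling is therefore uncertain, and CPM values, fold changes and calls near the threshold depend on it. The SE is the absolute log2 fold change over the square root of F. Alternatives used DESeq2 1.42.0 and limma 3.58.1. The edgeR step was tested on simulated data. Replicates of a group differed beyond sampling noise (smallest chi-square per degree of freedom 22.4). Overlapping genes came from GENCODE M21 (GRCm38). Counting intervals (95%) and the floor of 3 counts cover counting error only.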

Additional observations from a re-analysis of the deposited data

How the results depend on the processing

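The number of the 41 genes higher in PFOA was 26 with raw counts, listed totals and with each library left out. The rows differ between these same libraries, so this number and the 0 reversals below were largely set in advance and are no support. Over the 14 alternatives, 22 of the 31 tested genes kept their edgeR call. The other 9 lost it in at least 1, all of them higher in PFOA (AI182371, Clnk, Cxcl9, Cyp26b1, Gbp11, Ido1, Sema7a, Tnfrsf11b and Tnfrsf23), and 0 values reversed. Lost calls were not counted over all 1608 tested rows, so neither their number nor their direction can be called a trait of these genes. The number called higher was 15 to 19 and the number called lower 13 to 14 with 1 library left out, where the filter admits 33 to 38 of the genes. Restricting membership to inflammatory response gave 14 called higher and 13 lower, to immune response 7 and 1, and to immune system process 2 and 0, as fewer genes carry each term (27, 8 and 2 tested; every tested gene was called, also at an unadjusted p under 0.05). Without the filter 26 and 15 of all 41 were called, and with 1 CPM in 3 libraries 25 and 14 of 39. The replicate number as a block gave 18 higher and 13 lower, the same numbers as without it. Same-numbered libraries correlated at 0.114, -0.0305 and 0.102 in their deviations from the group means, so the numbers were not taken as pairs. Fits without 1 library leave 2 in that group. Depth is unknown, and filterByExpr leaves out 10 genes that the other filters admit in whole or part.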
